A study of Mus musculus with 12 samples.

Results

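Zinc finger and BTB protein genes were taken from a map of eIF4G2 binding on 5′ UTRs in mouse neurons. A gene was included when its symbol began with Zfp and a number, Zbtb, Zkscan, Zscan, Zfhx, Zic and a number, Zeb and a number, or Znf. This gave 106 of the 3366 named 5′ UTRs in the deposited tables. Of these, 88 carry Zfp symbols, 15 Zbtb, 2 Zscan (Zscan2 and Zscan29) and 1 Zic (Zic1), and 0 carry Zkscan, Zfhx, Zeb or Znf symbols. No member of the RNA-binding Zfp36 family is listed. Membership followed from the symbol alone, although the set itself was proposed with earlier results of these data known.

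eIF4G2 CLIP was performed in primary cortical neurons cultured from mid-gestation embryos of CD-1 mice, an outbred albino stock. Crosslinking by ultraviolet light fixes eIF4G2 to the RNA it touches, and the sequenced RNA fragments recovered with an eIF4G2 antibody are counted as tags. Resting neurons were compared with neurons silenced by tetrodotoxin and DL-AP5 for 2 h, depolarized with 55 mM KCl for 1 h and left to recover for 30 min, and both groups received cycloheximide, a blocker of translation elongation, for 2 min before harvest. The tables held 6 resting libraries and, after 1 library with the values of resting replicate 5 was set aside, 5 depolarized libraries (replicates 1, 2, 3, 4 and 6). The study's sources differ on the number of biological replicates. P values of tests on library values therefore measure the spread between these libraries, which may be partly technical. Binomial and exact tests on tags cover counting error only. Depth ranged from 264 to 5240 tags per library, and 15767 tags were counted over all of them. Neuronal markers were present (10 of 15 listed, with 188 tags), while 0 of 6 astrocyte, 0 of 7 oligodendrocyte-lineage, 0 of 4 endothelial and 0 of 4 fibroblast markers were listed and 1 of 5 microglial markers, Aif1, had 1 tag. Of the neuronal tags, 143 were on Syt1. The rule by which 5′ UTRs were listed is not stated, so a marker that is not listed does not show that its cell type was absent. Tags follow both the binding of an mRNA and its abundance, and these cannot be told apart without matched RNA libraries, nor can a change per cell be told apart from a change in the cells present.

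eIF4G2 is a relative of the scaffold initiation factor eIF4G that lacks the binding site for the cap-binding protein, and it supports initiation on mRNAs that rely less on the canonical cap complex, including those with upstream open reading frames (uORFs). Most proteins encoded by these genes are DNA-binding factors with arrays of C2H2 zinc fingers. In Zbtb proteins the fingers are joined to a BTB domain, which mediates dimer formation and recruits corepressors or cullin ubiquitin ligases. Many Zfp proteins carry a KRAB domain, which recruits the corepressor Trim28, and belong to families of close copies that often lie next to each other in the genome.

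Annotated sequence is shown for the Zbtb10 5′ UTR, which had more tags than any other member. Copies of the hexamer CGCGGC, the motif the study connects with eIF4G2 binding, are marked. The counts give no position within a 5′ UTR. Whether tags lie at or near the hexamers or the upstream ATG shown is therefore not known. Zbtb10 encodes a BTB zinc finger repressor of transcription. Its annotated 5′ UTR (transcript ENSMUST00000155203.1, GENCODE M21 on GRCm38) is chr3:9250602-9251129 on the plus strand, lies within a single exon, is 528 nucleotides long with 80.9% GC, and overlaps no exon of another annotated gene. It holds 5 copies of CGCGGC on the sense strand. The lines below give 30 bases around each of the 4 copies far enough from the end of the 5′ UTR, 5′ to 3′ with the hexamer in capitals. The first copy shown begins at position 263 of the 5′ UTR and the last ends 65 bases before the start codon.
Zbtb10, chr3:9250852-9250881: cgctgcccggagCGCGGCggggcgcgggtg
Zbtb10, chr3:9250877-9250906: gggtggagaggaCGCGGCtgggacggcggc
Zbtb10, chr3:9251029-9251058: cgttgggggagcCGCGGCgagcgcgcggga
Zbtb10, chr3:9251047-9251076: gagcgcgcgggaCGCGGCcggagcccgggc

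The same 5′ UTR has 1 upstream ATG, at position 29, which opens a uORF of 7 codons before its stop and lies on the plus strand in chr3:9250618-9250644. The ATG is in capitals in the next line.
Zbtb10, upstream ATG: tgtcggctcgctATGtggcggagcctg

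Among the 9 members with 4 or more tags, Zfp664, Zfp319 and Zfp518b also hold the hexamer, and 1 window for each is given for comparison with Zbtb10. The Zfp664 window is on the plus strand and the other two are on the minus strand, written in the sense of the transcript. Outside the hexamer the windows share a high content of G and C.
Zfp664, chr5:124862728-124862757: ggagcgcgcgcgCGCGGCtcggagacgcac
Zfp319, chr8:95331584-95331613: cgtaggccgcgcCGCGGCggatggagccgg
Zfp518b, chr5:38684752-38684781: acctacagcgggCGCGGCggcggcggtctg

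Zinc finger and BTB genes were listed more often than protein-coding genes as a whole but had few tags each. Of 476 annotated protein-coding genes with these symbols, 106 (22.3%) were listed, against 15.2% of all 21924 protein-coding genes. The share was 36.6% (15 of 41) for Zbtb genes and 22.3% (88 of 394) for Zfp genes, 2 of 19 Zscan genes and 1 of 5 Zic genes were listed, and 0 of 11 Zkscan, 0 of 3 Zfhx and 0 of 2 Zeb genes. At least 1 tag was found on 103 members. The exceptions were Zfp26, Zfp7 and Zfp62, with 0 tags in all 11 libraries, a count that allows up to 3 tags.

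The 106 genes made up 3.15% of the listed 5′ UTRs and received 303 tags, 1.92% of all tags. Zbtb10 alone had 115 of these. Without it, 188 tags (1.19%) fell on the other 105 5′ UTRs, a mean of 1.79 tags per 5′ UTR against 4.68 over all listed 5′ UTRs. A single tag was found on 63 members (59.4%, against 40.8% of all 5′ UTRs), and 82 members (77.4%, against 61.6%) had fewer than 3 tags. Only Zbtb10 and Zfp664 had 10 or more tags, 1.89% of members against 9.42% of all 5′ UTRs. Per length, members had a median of 4.67 tags per kilobase and all 5′ UTRs 6.99, while Zbtb10 had 218 tags per kilobase, position 34 among all 5′ UTRs on that scale. The next members on that scale, Zfp236 with 26.9, Zfp292 with 24.4, Zfp383 with 23.4 and Zbtb49 with 20.0 tags per kilobase, rested on 5, 1, 3 and 3 tags, and counting error alone does not separate them from each other.

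**Figure D1:**
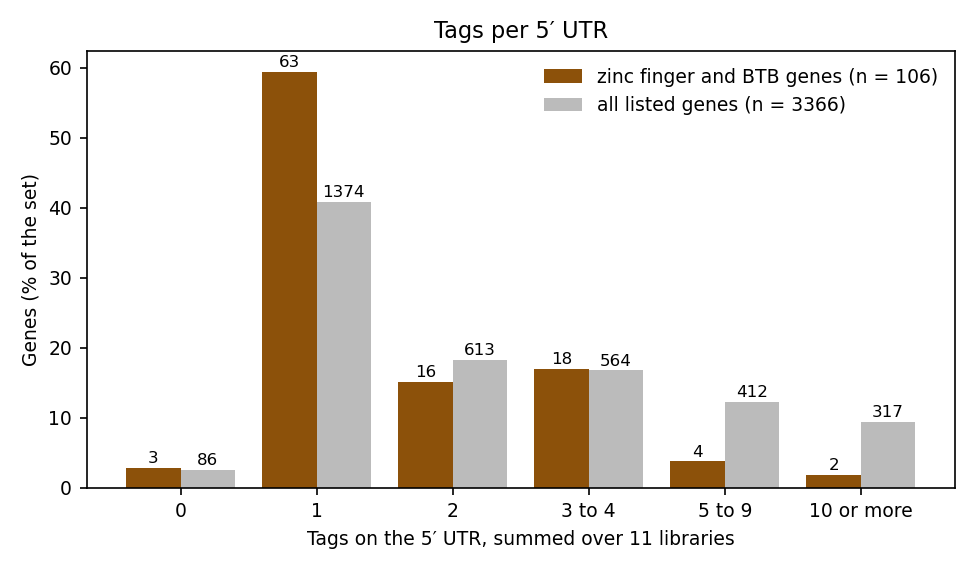
Share of 5′ UTRs (vertical axis, percent of the set) by the number of tags summed over 11 libraries (horizontal axis), for 106 zinc finger and BTB genes (brown) and all 3366 listed genes (grey), with the number of genes above each bar. Single-tag 5′ UTRs make up 59.4% of the set and 40.8% of all, and 5′ UTRs with 10 or more tags 1.89% and 9.42%.

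Tags on the members were spread over few libraries. Of the 103 members with a tag, 72 (69.9%) had tags in 1 library only, against 54.6% of all 5′ UTRs with a tag, and 2, Zbtb10 and Zfp664, had tags in 6 libraries. Tags were found at rest only for 42 members (40.8%, against 27.9% of all), after depolarization only for 39 (37.9%, against 36.3%) and in both conditions for 22 (21.4%, against 35.8%). With 1 tag on most members, presence in 1 condition says little about the other. Zbtb18, a repressor required for cortical neuron development, had 1 tag in depolarized replicate 3, Zbtb20, which specifies hippocampal neurons, had 1 tag in resting replicate 2, and Zfp335, a gene mutated in inherited microcephaly, had 1 tag in resting replicate 1. These 3 genes were named as examples after their values had been seen, and other members with roles in neural development had more tags, such as Zic1 and Zfp423 with 4 each.

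All 106 members had an annotated 5′ UTR, and 3316 of the 3366 listed genes did. The members' 5′ UTRs were of like length to the rest (median 342.5 nucleotides, against 306.5 over all) and had a lower GC content (median 59.7%, against 65.9%). CGCGGC on the sense strand was present in 25 members (23.6%) and in 36.8% of all 5′ UTRs. Upstream ATGs were present in 81 members (76.4%, against 66.6%), with a median of 2.5 per 5′ UTR against 1, and a complete uORF in 75 (70.8%, against 60.9%). A single exon held the whole 5′ UTR in 34 members (32.1%, against 54.4%). These are descriptions of the annotated sequence, without a test.

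Sequence features differed among the members. The hexamer was present in 5 of 15 Zbtb genes (33.3%) and 20 of 88 Zfp genes (22.7%). It was present in 11 of the 22 members with tags in both conditions (50%), whose median length was 524.5 nucleotides. With tags at rest only, 10 of 42 held it (median length 309 nucleotides), and with tags after depolarization only, 4 of 39 (287 nucleotides). These 42 and 39 members rest on 59 and 48 tags. Hexamer shares of the same classes over all 5′ UTRs were not computed, so the differences between classes have no background here. Of the 9 members with 4 or more tags, 4 (44.4%) held it, against 48.2% of all 5′ UTRs with 4 or more tags. Tags on hexamer-bearing 5′ UTRs were 56.4% of the members' tags with Zbtb10 and 29.8% without it, against 46.5% over all 5′ UTRs. More than 1 copy was found in 9 members, and 5 or more in Zbtb10 alone, a number reached by 26 of all 5′ UTRs (0.784%). A GC content at least as high as that of Zbtb10 was found in 3 members (Zbtb10 itself, Zfp236 and Zfp704) and in 4.70% of all 5′ UTRs. At the other end, Zbtb18 had 24 upstream ATGs, 39.3% GC and no CGCGGC in 1282 nucleotides, and Zfp57 had 20 upstream ATGs in 1220 nucleotides with 40.8% GC.

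**Figure D2:**
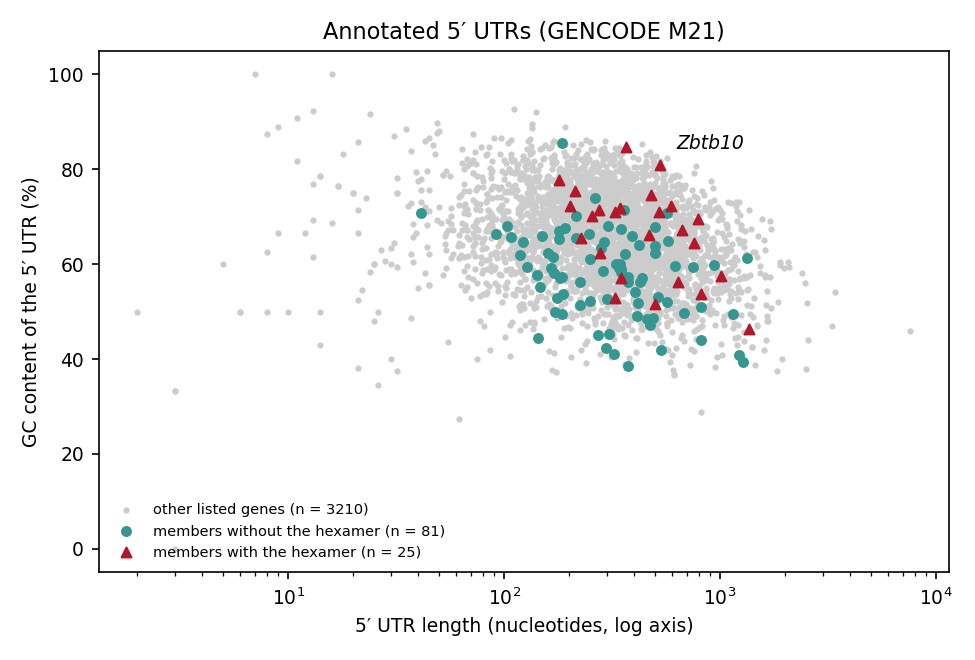
GC content (percent) against length (nucleotides, log axis) of annotated 5′ UTRs. Members with CGCGGC are red triangles (n = 25), members without it green circles (n = 81) and other listed genes grey points (n = 3210). Zbtb10 lies at 528 nucleotides and 80.9% GC, and the members' median GC content of 59.7% is below the 65.9% of all.

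Zbtb10 tags were concentrated in replicates 4 to 6 of both conditions. At rest the counts were 1, 0, 0, 24, 38 and 38 tags in replicates 1 to 6, and after depolarization 0, 0, 0, 7 and 7 tags in replicates 1, 2, 3, 4 and 6. As shares of a library's tags these were 0.0310%, 0%, 0%, 3.29%, 4.09% and 4.16% at rest, and 0%, 0%, 0%, 1.28% and 2.65% after depolarization. A count of 0 allows a share of up to 0.0573% in the deepest of these libraries, depolarized replicate 1, and up to 0.980% in the shallowest, resting replicate 3. Each library of replicates 4 to 6 was above each library of replicates 1 to 3 in either condition, and the conditions overlapped over all libraries. Replicates 4 to 6 held 114 of the 115 Zbtb10 tags (99.1%) but 21.5% of all tags. Of the 317 5′ UTRs with 10 or more tags, 10 (3.15%) separated the same libraries completely in this way, and none but Zbtb10 had as large a part of its tags in replicates 4 to 6. The labels give no reason for the difference between these replicates, and its source was not tested.

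Resting libraries had a mean Zbtb10 share of 1.93% ± 2.13 (SD, n = 6) and depolarized libraries of 0.785% ± 1.18 (SD, n = 5). This difference was smaller than the spread among libraries of a condition (P = 0.264 in a two-sided exact permutation test, where the smallest possible P is 0.00216). In replicates 4 to 6 the share was 3.85% ± 0.484 (SD, n = 3) and 1.96% ± 0.973 (SD, n = 2). There the 3 resting libraries lay above the 2 depolarized ones, at P = 0.1 in the exact permutation test, the smallest this design allows. In replicates 1 to 3 the exact permutation P was 1, with 1 tag in all. In edgeR's quasi-likelihood test over all libraries the log2 fold change of Zbtb10 was −1.69 (SE 1.26, adjusted P = 0.749). In replicates 4 to 6 alone it was −1.16 (SE 0.329, adjusted P = 0.0365), the 1 call among 24 5′ UTRs tested (4.17%), in a fit of 5 libraries. Zbtb10 was the 1 member tested there. The gene and this subset, which holds nearly all its tags, were chosen with these values known, so this P is no independent support. The median log2 fold change of those 24 5′ UTRs was −0.51, and the Zbtb10 value is read against it. With single replicate numbers left out in turn, the edgeR value moved most without replicate 6, to −2.66. The difference in mean share, −1.14 percentage points with all libraries, was −0.71 without replicate 5.

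Summed tags gave a larger difference. Pooled by condition, 101 of 6471 resting tags and 14 of 9296 depolarized tags fell on Zbtb10, a share 10.4-fold lower after depolarization (95% exact interval 5.90 to 19.6, counting error only). Replicates 4 to 6 supplied 39.7% of the resting tags and 8.75% of the depolarized tags. Within them the counts were 100 of 2570 (3.89%) and 14 of 813 (1.72%), and the share was 2.26-fold lower (1.29 to 4.28). By replicate number it was 2.58-fold lower (1.08 to 7.10) in replicate 4 and 1.57-fold lower (0.693 to 4.17) in replicate 6, where the interval includes no change. That libraries of the same number form pairs is an assumption. Conditioned on replicate number (1, 2, 3, 4 and 6), an exact test found fewer depolarized tags than equal shares give (P = 0.0111). That test takes each tag as independent, covers counting error only and leaves out resting replicate 5. All but 1 of the Zbtb10 tags it uses are in replicates 4 and 6. The gene was chosen with these values known, so this P is no independent support either. The edgeR test with replicate number as a block gave an adjusted P of 0.997.

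**Figure D3:**
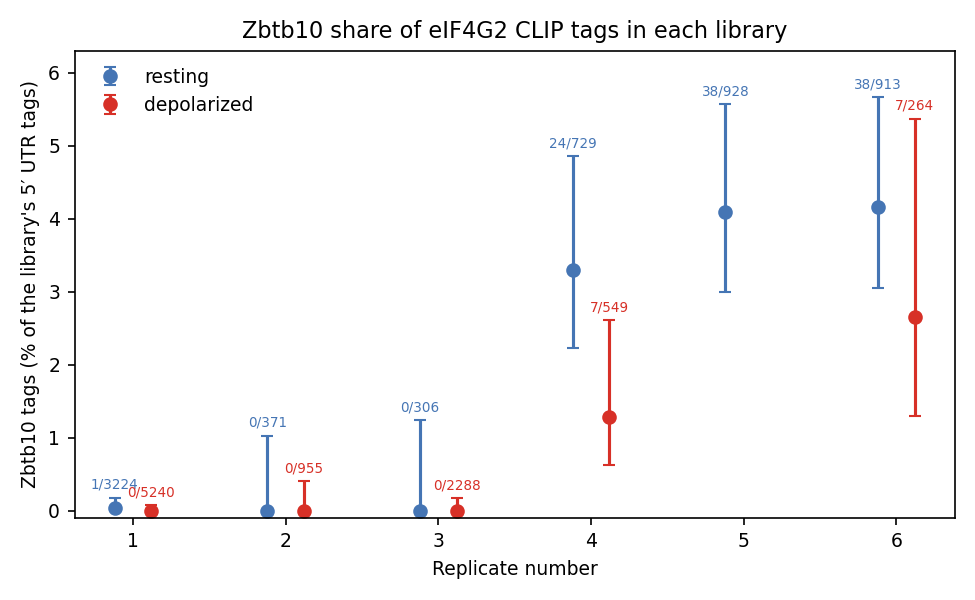
Zbtb10 tags as a percentage of a library's 5′ UTR tags (vertical axis) by replicate number (horizontal axis), resting in blue and depolarized in red. Points are single libraries, bars are Wilson 95% intervals and the labels give Zbtb10 tags over all tags. Replicates 1 to 3 sit at or near 0% in both conditions, and in replicates 4 to 6 the resting libraries (3.29% to 4.16%) lie above the depolarized ones (1.28% and 2.65%).

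The share of tags on all members followed Zbtb10. At rest it was 2.02%, 1.35%, 0.980%, 4.39%, 5.06% and 5.48% for replicates 1 to 6. After depolarization it was 0.763%, 1.26%, 1.22%, 2.00% and 3.79% for replicates 1, 2, 3, 4 and 6. The means were 3.21% ± 1.99 (SD, n = 6) for resting and 1.81% ± 1.19 (SD, n = 5) for depolarized libraries. For the members other than Zbtb10 the means were 1.28% ± 0.380 (SD, n = 6) and 1.02% ± 0.256 (SD, n = 5), with ranges of 0.970% to 1.99% and 0.729% to 1.26% that overlap. Unlike for Zbtb10, the shares of replicates 4 to 6 overlapped those of replicates 1 to 3 in both conditions. Their mean share at rest was 1.44% in replicates 1 to 3 and 1.13% in replicates 4 to 6, and after depolarization 1.08% and 0.932%. No test was made on these sums, since the genes were chosen as a set with results of these data known.

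**Figure D4:**
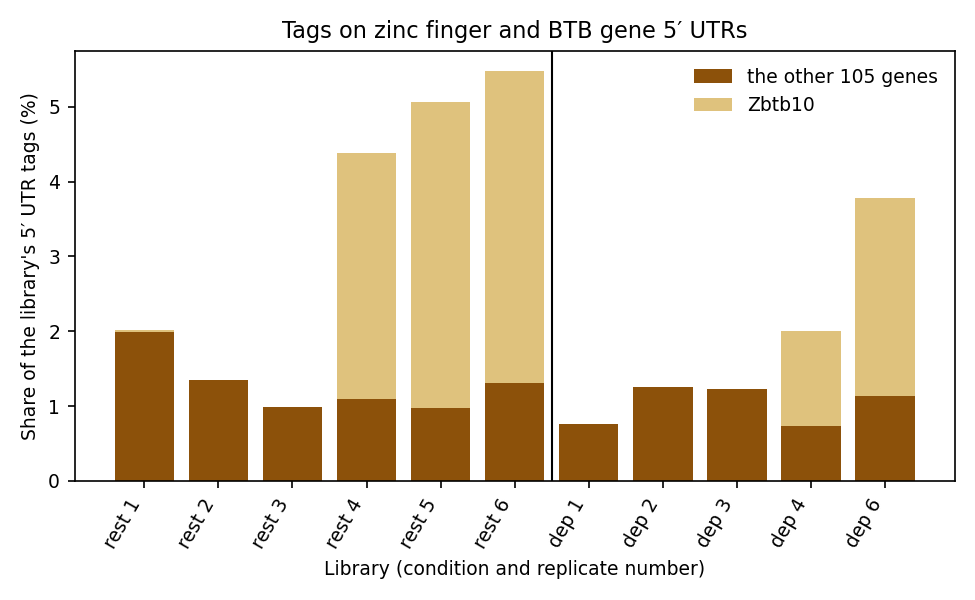
Share of each library's 5′ UTR tags (percent) on Zbtb10 (light brown) and on the other 105 genes (dark brown), stacked, for 6 resting and 5 depolarized libraries. The dark bars stay between 0.729% and 1.99% in all libraries, and the light bars reach 1% or more in replicates 4 to 6 only.

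Few members had enough tags for a test that uses the spread between libraries. Of 317 5′ UTRs with 10 or more tags, 2 were members, and edgeR called 0 members higher and 0 lower (background 0% and 0% of 317). Without adjustment 0 of the 2 had P below 0.05, and over all 5′ UTRs 24 were higher and 1 lower. DESeq2 also made 0 calls, with 0 members below 0.05 without adjustment. Scaling moved the median log2 fold change of all 317 5′ UTRs, which was 0.52 with TMM, 0.38 with library totals and 1.16 with DESeq2, and a fold change is read against that shift. Zfp664, a little-described C2H2 factor, was the other member tested. Its tags were 1, 0, 0, 2, 0 and 0 at rest and 4, 2, 1, 0 and 1 after depolarization, so that tags were found in 2 of 6 resting and 4 of 5 depolarized libraries. Its log2 fold change was 1.07 (SE 1.18, adjusted P = 0.862, edgeR), and the summed shares, 3 and 8 tags, gave a ratio of depolarized to resting of 1.86 (95% exact interval 0.446 to 10.9) that includes no change. Without replicate 4, whose 2 tags gave the highest resting value, the pooled log2 fold change went from 0.87 to 2.30 and passed the pooled threshold (P = 0.0703, exact binomial test on pooled sums). The Zfp664 5′ UTR has 1005 nucleotides in 4 exons, with 11 upstream ATGs.

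A binomial test was also made on tags summed by condition and scaled for depth, with the study's threshold of P below 0.2. The study's methods name a binomial test on depth-normalized tags but do not state how libraries were combined or rounded, and their threshold is for higher values only, so this test may differ from theirs. Sums carry no spread between replicates. By this test 0 of 103 members were higher after depolarization (background 5.21% of 3280 5′ UTRs) and 7 were lower (6.80%; background 4.51%). The median pooled log2 fold change was −0.48 over the members and 0.33 over all 5′ UTRs with a tag. The −0.48 equals the value of a member with 1 tag in each condition, set by the scaling for depth. Members with a single tag had −3.72 or 3.24, so the members' median does not measure a shift. With these totals 3 resting tags against 0 passed as lower, while 5 depolarized tags against 0 were needed to pass as higher. Of the 7 members, 5 were at that limit of 3 tags. With TMM-scaled totals 2 members were lower, Zbtb10 and Zbtb5, and 0 higher (background 2.74% and 7.10%). The exact test within replicate numbers gave 11 lower and 0 higher of 102 (background 10.1% and 4.36%), a lower share of 10.8% that lies near its background.

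Zbtb5, a BTB zinc finger repressor that acts on the cell-cycle inhibitor gene Cdkn1a, had the most tags among the lower members after Zbtb10. Its tags were 6, 0, 0, 0, 2 and 0 at rest and 1, 0, 0, 0 and 0 after depolarization. Tags were found in resting replicates 1 and 5 and in depolarized replicate 1, and the other 8 libraries had 0. The pooled log2 fold change was −3.38 (P = 0.0117, exact binomial test on pooled sums), and the share was 11.5-fold lower (95% exact interval 1.54 to 510). Adjusted over all 5′ UTRs, the P of that binomial test was 0.601. edgeR on 5′ UTRs with at least 5 tags gave Zbtb5 a log2 fold change of −2.48 (SE 1.31, adjusted P = 0.543). Without replicate 1, which held 7 of its 9 tags, Zbtb5 did not pass the pooled test. Its 5′ UTR (570 nucleotides, 70.9% GC, 4 upstream ATGs, no CGCGGC, chromosome 4) overlaps the opposite-strand gene 1700055D18Rik, and tags of overlapping genes are uncertain since the counting is not stated to use strand.

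The other 5 lower members had 3 resting and 0 depolarized tags (P = 0.125 each, exact binomial test on pooled sums). Zfp57, a KRAB factor that maintains DNA methylation at imprinted genes, had 1 tag each in resting replicates 1, 5 and 6. Zfp672 had 1 tag in resting replicate 2 and 2 in replicate 5, and overlaps the opposite-strand gene 1700047K16Rik. Zbtb49, Zfp2 and Zfp954 each had their 3 tags in resting replicate 1, and so rest on a single library. Zfp672, Zfp57 and Zbtb10 were the 3 members with an unadjusted P below 0.05 when edgeR was run on all 3280 5′ UTRs with a tag, each at an adjusted P of 0.382. These 3 of 103 members were lower, and over the 3280 5′ UTRs 59 were lower and 86 higher at that level. Opposite cases with as many tags did not pass. Zbtb16 (also known as PLZF), a regulator of stem and lymphoid cells, and Zfp408 each had 3 tags in depolarized replicate 3, and Zfp383 had 1 in depolarized replicate 1 and 2 in replicate 3 (P = 0.25 each, exact binomial test on pooled sums). These 3 were named after their values had been seen.

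**Figure D5:**
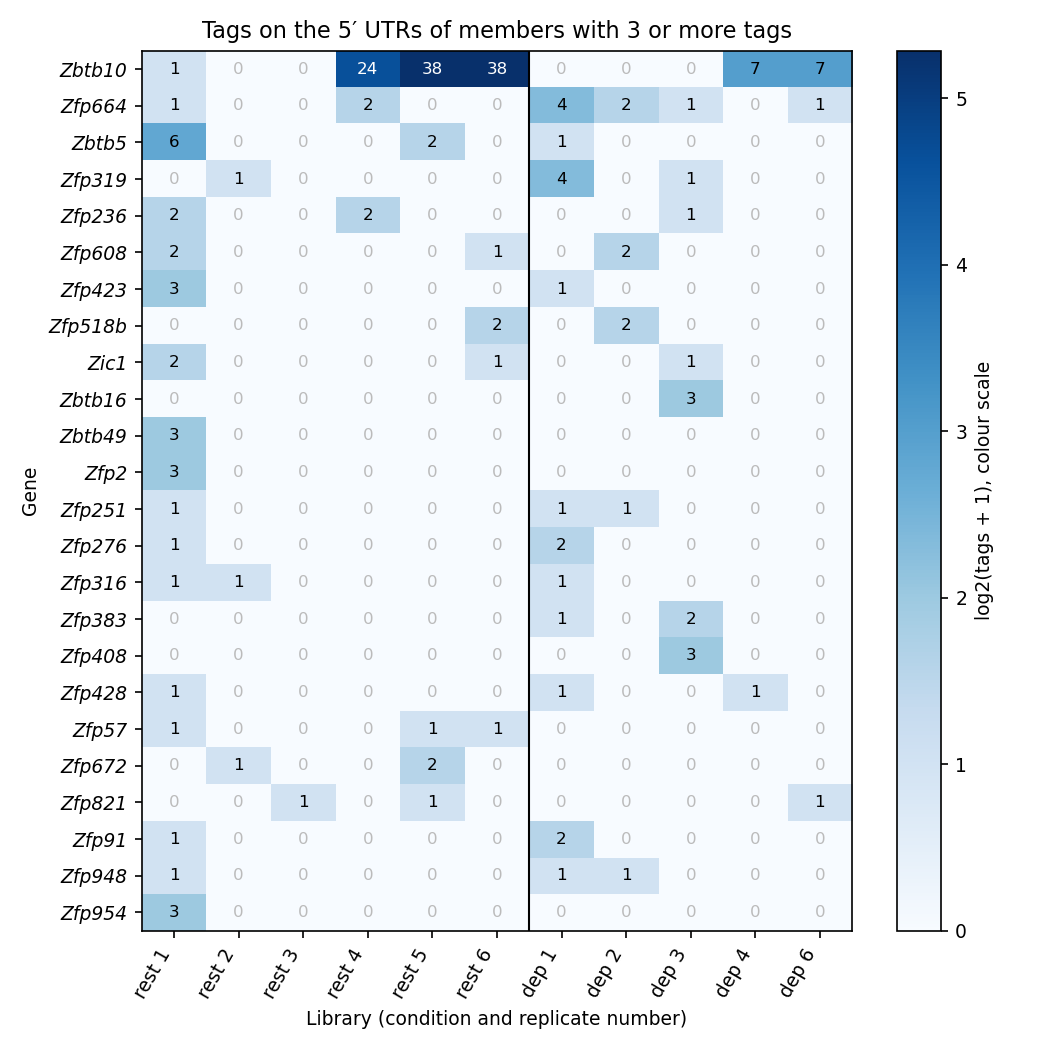
Tags (numbers in cells, color on a log2(tags + 1) scale) in each library (columns, resting left and depolarized right of the line) for the 24 members with 3 or more tags (rows). Zbtb10 holds 24 to 38 tags in resting replicates 4 to 6 and 7 in each of depolarized replicates 4 and 6, and the other members hold at most 6 tags in a library.

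The remaining members with 4 or more tags varied in direction. Zfp319 had 1 tag in resting replicate 2, 4 in depolarized replicate 1 and 1 in depolarized replicate 3 (ratio of depolarized to resting shares 3.48, 95% exact interval 0.389 to 165). Zfp236, which overlaps the opposite-strand gene Gm10524, had 2 tags in each of resting replicates 1 and 4 and 1 in depolarized replicate 3. Zfp608 had 2 in resting replicate 1, 1 in resting replicate 6 and 2 in depolarized replicate 2. Zfp423, a C2H2 factor of cerebellar and adipocyte development, had 3 in resting replicate 1 and 1 in depolarized replicate 1, and Zfp518b had 2 in resting replicate 6 and 2 in depolarized replicate 2. Zic1, a ZIC factor of neural tube and cerebellar development, had 2 in resting replicate 1, 1 in resting replicate 6 and 1 in depolarized replicate 3. Zfp64 had 1 tag, in depolarized replicate 1. None of these 7 passed the pooled test with all libraries. They had fewer than 10 tags and so were outside the main edgeR test, and with no filter on tags edgeR called none of them. In the exact test within replicate numbers, Zfp236 (P = 0.136) and Zfp423 (P = 0.158) were among the 11 lower members.

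By family, Zfp genes had 154 tags (81 resting and 73 depolarized) and Zbtb genes 143 (118 and 25), or 28 (17 and 11) without Zbtb10. The resting and depolarized libraries summed to 6471 and 9296 tags. Zscan2 and Zscan29 had 1 tag each, both after depolarization. The 14 Zbtb genes other than Zbtb10 had a median of 1 tag. Tags of KRAB-type Zfp genes with close copies are uncertain, since the handling of reads with several matches is not stated. In 17 members the 5′ UTR overlaps exons of another annotated gene, in 4 on the same strand and in 13 on the opposite strand.

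Related genes outside the symbol rule had more tags per 5′ UTR. Of 78 other C2H2 genes on a written list, 23 were listed, with 87 tags (37 resting and 50 depolarized) and a median of 3 tags, against 1 for the members and 2 over all listed 5′ UTRs. Bcl11b, which specifies subcerebral projection neurons, was the 1 of these with 10 or more tags (21 tags, log2 fold change 0.10, SE 1.03, adjusted P = 0.995, edgeR). Of 35 genes for partners and corepressors, 19 were listed, with 88 tags (33 resting and 55 depolarized) and a median of 2. Rbbp7, a histone-binding subunit of corepressor complexes (22 tags, log2 fold change 1.07, SE 1.05, adjusted P = 0.862, edgeR), and Cul3, the cullin scaffold that binds BTB adaptors (18 tags, log2 fold change 0.19, SE 1.07, adjusted P = 0.974, edgeR), were the 2 tested. Across both lists 0 of 3 tested genes passed in either direction. Trim28, the corepressor of KRAB zinc fingers, had 8 tags, 3 resting and 5 depolarized.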

How the data were processed

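eIF4G2 CLIP libraries from resting and depolarized mouse cortical neurons were analysed. The authors filtered and demultiplexed single-end reads with CLIP Tool Kit, collapsed exact duplicates, aligned them to mm10 with Rsubread, and counted those on the 5′ UTR of the longest UCSC known-gene transcript with summarizeOverlaps; cutadapt is also named in the submitters' processing notes. The deposited values are raw counts of tags, not normalized or pooled. How reads with several matches were treated, how strand was used and how the listed 5′ UTRs were chosen are not given in the sources used here. Each of the 12 tables has 3367 rows. In each, 1 row names no gene, and it was excluded with its 0 tags (0%). The table labelled depolarized replicate 5 equals that of resting replicate 5 at all 3367 rows and was not used.

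Members and lists were chosen with earlier results of these data known. edgeR 4.0.16 (R 4.3.3; quasi-likelihood test, TMM, Benjamini-Hochberg, adjusted P below 0.05) was run on 5′ UTRs with at least 10 tags, with condition as the term and library sizes over all 5′ UTRs. For the pooled test, tags were summed by condition, scaled to the mean total, rounded and tested against equal shares with a two-sided exact binomial test (P below 0.2), and log2 fold changes used a pseudocount of 0.1. DESeq2 1.42.0 was an alternative, as were other scalings, filters, thresholds and subsets of replicates. The SE given with edgeR values is the absolute log2 fold change divided by the square root of the test's F statistic. The edgeR and pooled steps were tested on simulated data. Intervals are 95% and, like the limit of 3 tags for a count of 0, cover counting error only. Libraries of 264 to 5240 tags limit precision. Sequences and 5′ UTR features are from GENCODE M21 (GRCm38), matched by symbol, and may differ from the UCSC models behind the counts. Python 3.11.15 was used with scipy 1.17.1, pandas 2.3.3, numpy 2.4.6 and, for figures, matplotlib 3.10.9.

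The study's methods say that resting and depolarized samples were barcoded at reverse transcription and then pooled. They do not say that pooling followed the replicate numbers, so pairing by number is an assumption. Over 317 5′ UTRs, deviations from the group means correlated between same-numbered libraries at 0.293, 0.217, 0.140, 0.231 and 0.221 in replicates 1, 2, 3, 4 and 6. The highest correlation with a library of another number was 0.232, 0.0725, 0.192, 0.260 and 0.188, above that of the same number in replicates 3 and 4. Genes named by rule were members with 10 or more tags, those that pass the pooled test, Zic, Zeb and Zfhx members with a tag, and Zfp64 and Zfp286, of which the latter is not analysed here. Other genes were named after their values had been seen.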

Additional observations from a re-analysis of the deposited data

Results flagged for a closer look

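In 9 of 26 sets of libraries examined (13 measures in each condition), the highest library stood apart from the rest by Dixon's criterion. For normally distributed values about 1.3 would be flagged by chance. Most of these measures are sparse counts, so the 9 are not read as an excess. In 7 of the 9 the measure was a single gene's tags scaled to library depth (CPM), and in 6 of those the other libraries of the condition had 0 tags, so that any tag stands apart. Resting replicate 1, the deepest resting library, had tags on 47 members (next 12), and members other than Zbtb10 took 1.99% of its tags (next 1.35%).

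Zfp664 reached 2743 CPM in resting replicate 4, from 2 tags, with 310 CPM next. Zbtb49, Zfp2 and Zfp954 each had 931 CPM in resting replicate 1, from 3 tags. After depolarization, Zbtb5 and Zfp64 each had 191 CPM in replicate 1 and Zic1 had 437 CPM in replicate 3, from 1 tag each.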

How the results depend on the processing

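Of 199 values recomputed under alternatives, 154 counted as unchanged and 0 reversed. For single genes, unchanged meant the same direction and the same side of the threshold. For counts of calls it meant within a set ratio of the main count. For the member share it meant within its SD, and for the hexamer share within its interval. Counts cannot reverse, and some alternatives leave a single gene's P as it was, so the tally is no measure of robustness. In the pooled test of single members, 30 values lost the call and 1, Zfp664 without replicate 4, gained it. edgeR called 0 members under every setting except replicates 4 to 6 alone, which called 1, Zbtb10 (log2 fold change −1.16); in replicates 1 to 3 alone no member had enough tags to be tested. Without single replicates the edgeR count was 0 to 0 and the Zbtb10 log2 fold change −2.66 to −1.31. With the replicate number as a block it was −1.32 (adjusted P = 0.997), and this pairing changed no other edgeR call. Over all 13 settings the Zbtb10 value was negative and its adjusted P ranged from 0.0365 to 0.997.

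In the pooled test 7 of 103 members were lower (6.8%, against 4.51% of all 5′ UTRs tested). At P below 0.05 there were 2 (1.94%, against 1.25%), and 1 after adjustment over all 5′ UTRs (0.971%, against 0.305%). With TMM-scaled totals there were 2 (1.94%, against 2.74%). Among 5′ UTRs with 4 or more tags, 2 of 9 members passed (22.2%, against 10.6%). In replicates 1 to 3 it was 4 of 91, a lower share than the 5.06% of all. In replicates 4 to 6 it was 1 of 27 (3.7%, against 1.44%). The exact test within replicate numbers (the replicate block) gave 11 of 102 (10.8%, against 10.1%). Without replicate 1 the count of lower members was 1 of 55 (1.82%, against 2.1%), and without replicate 3 it was 3 of 87 (3.45%, against 3.1%). Without replicate 2 or 4 it was 7 (7% and 7.14%, against 4.31% and 4.77%). Without replicate 5 it was 5 (4.9%, against 4.26%), and without replicate 6 it was 6 (6.06%, against 4.78%). The count of higher members was 0 to 1, with Zfp319 passing without replicate 2 and Zfp664 without replicate 4. The difference in member share was −1.71 to −1.04 percentage points without single replicates. The share of members with CGCGGC was 44.4% for those with 4 or more tags. For these changes, apart from fewer libraries or 5′ UTRs tested, the cause was not tested. Depth limits most members, of which 82 had fewer than 3 tags.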
